A study of Mus musculus with 12 samples.

Results

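Lipolysis and lipid droplet genes were examined in B16-OVA, a murine melanoma cell line with an added ovalbumin antigen, after exposure to a MEK inhibitor (MEKi). The group holds 10 genes, Mgll, Pnpla2, Lipe, Abhd5, G0s2, Plin2, Plin3, Dgat1, Dgat2 and Cpt1a, of 18194 genes measured. Its members were taken as every probe set that the array's annotation pairs with one of these genes alone, which gave 21 of 45037 probe sets. Mgll and G0s2 were chosen by their log2 signals on the MEKi arrays against the DMSO arrays, so their drug differences are given as a description, with no test. RNA came from 4 groups of cultured cells: 100 nM GDC-0623 for 24 h, DMSO for 24 h, 100 nM GDC-0623 for 72 h and DMSO for 72 h. All 4 groups were this 1 line in monolayer culture, and inhibitor or DMSO was added the day after seeding. Each group had 3 samples with 1 Affymetrix Mouse Genome array per sample, and values are log2 RMA signals, on which a difference of 1 is a doubling. The sources used here do not say that the samples of a group came from separate cultures, so p-values measure the spread between these arrays, which may be technical in part.

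Triacylglycerol, the main cargo of lipid droplets, is broken down stepwise. Pnpla2 (ATGL) removes the first fatty acid, Lipe (hormone-sensitive lipase) acts mainly on the diacylglycerol that is left, and Mgll (monoacylglycerol lipase) releases the last one. Mgll also degrades the endocannabinoid 2-arachidonoylglycerol, and MEK, the target of GDC-0623, is the kinase that activates ERK.

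All 12 arrays had medians between 5.31 and 5.42, and arrays correlated at r = 0.996 to 0.998 within groups and 0.987 to 0.997 between groups. Dusp6, an ERK phosphatase whose transcription follows ERK activity, averaged 10.14 in MEKi cells and 11.54 in DMSO cells at 24 h (adjusted p = 0.00401, limma), and 9.73 in MEKi cells and 11.01 in DMSO cells at 72 h (adjusted p = 0.000671). The 7 melanocyte markers were all above the median probe set mean of 5.363, with array means over the list of 13.57 to 13.62 in MEKi cells and 13.41 to 13.42 in DMSO cells at 24 h, and 13.43 to 13.58 and 13.39 to 13.54 at 72 h. With MEKi 2 of the 7, Tyr and Mitf, were called higher at 24 h (adjusted p = 0.0142 and 0.0174, limma), against 5.01% of all genes. At 72 h 0 of the 7 were called higher, against 4.03%. Of the 4 measured adipocyte markers, Adipoq, Lep and Fabp4 were below that median in all 4 groups, while Retn had group means of 6.17 to 6.60. No adipocyte marker passed the test with MEKi, and Retn rose in DMSO cells at 72 h relative to 24 h (adjusted p = 0.00418). Of the 4 immune markers 3 were above the median, Csf1r with group means of 6.13 to 6.50, Cd3e with 5.45 to 5.78, and Lyz2, while Ptprc was between 2.81 and 3.47 on every array. Only Lyz2 of the 4 passed the test with MEKi, and only at 24 h, when it was 5.93 in MEKi cells and 5.55 in DMSO cells (adjusted p = 0.0173). Of 5 fibroblast and endothelial markers, Col1a2 was 7.36 in MEKi cells and 6.67 in DMSO cells at 24 h (adjusted p = 0.0047), while Pdgfra was 3.86 and 4.22 (adjusted p = 0.0466), below the median. The 3′ minus 5′ difference of the Phe control RNA, added to every sample, was 1.59, 1.53 and 1.39 on the MEKi arrays and 1.24, 1.32 and 1.25 on the DMSO arrays at 24 h, with no overlap, and the groups overlapped at 72 h. The part of these values in the results was not tested. In bulk RNA, fewer cells with a transcript and less of it per cell cannot be told apart.

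By brightest probe sets, Mgll had the largest MEKi difference of the 10 genes at 24 h, and G0s2, an inhibitor of Pnpla2, had the largest in size at 72 h, downward. Apart from these, Abhd5, Dgat1 and Cpt1a rose at both times, Plin3 rose at 24 h and Plin2 rose at 72 h, with fold changes between 1.24 and 1.87. Pnpla2, Lipe and Dgat2 did not pass the test at either time.

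**Figure D1:**
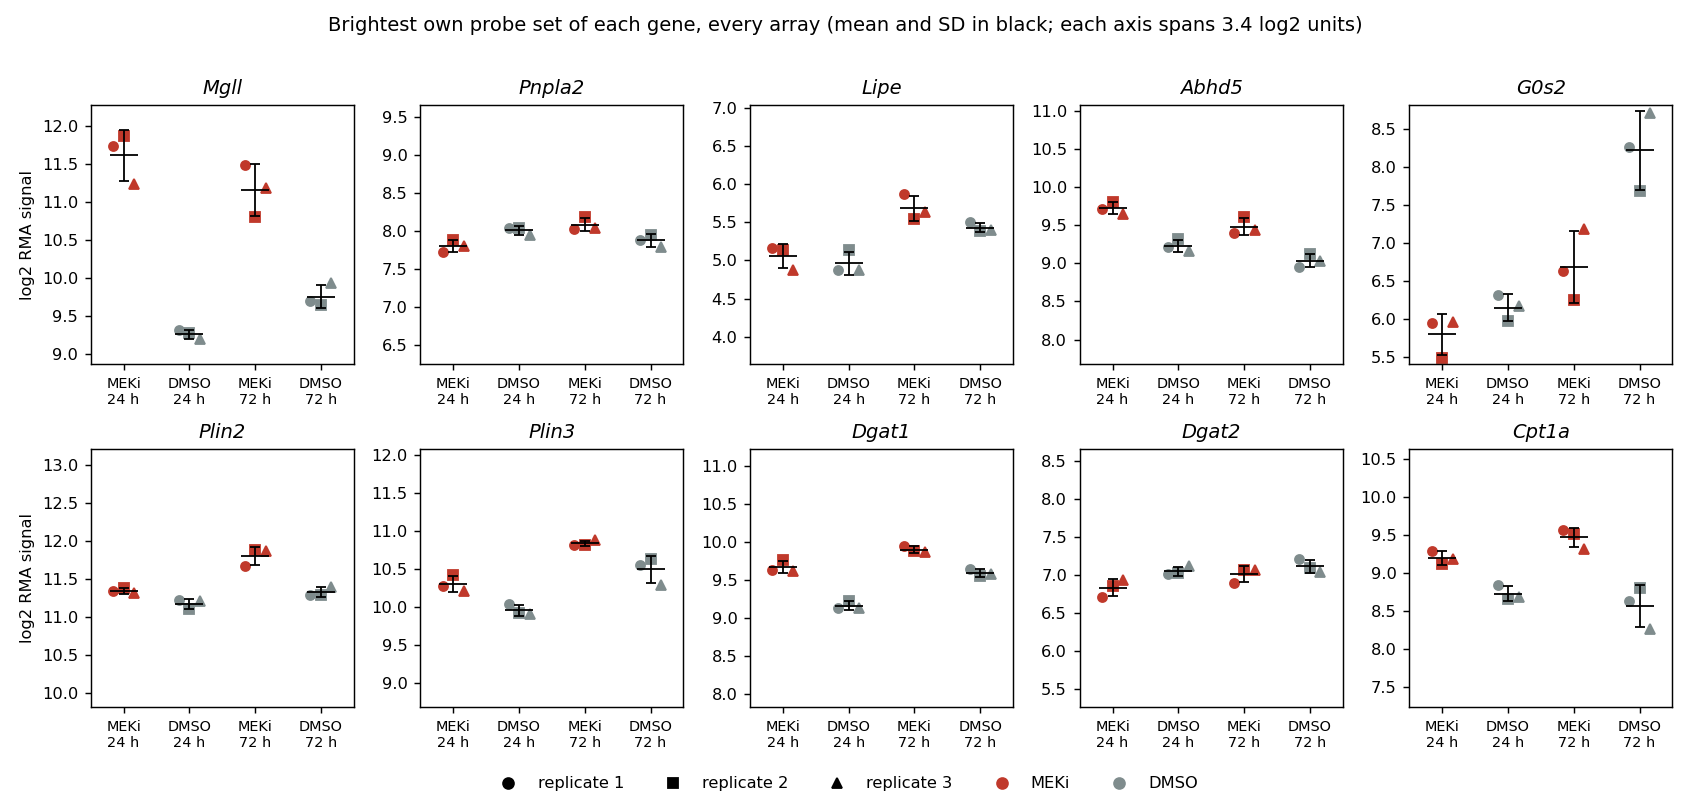
The log2 RMA signal of the brightest own probe set of each of the 10 genes is plotted for every array, with MEKi arrays in red, DMSO arrays in grey, marker shapes for replicate numbers, and the mean ± SD of each group (n = 3) in black. Mgll was higher on every MEKi array than on any DMSO array, and G0s2 was highest on the DMSO arrays at 72 h.

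Mgll was read by 4 probe sets. On the brightest the signal was 11.73, 11.87 and 11.23 in MEKi cells at 24 h, against 9.31, 9.27 and 9.19 in DMSO cells. At 72 h it was 11.48, 10.80 and 11.18 in MEKi cells, against 9.69, 9.64 and 9.93 in DMSO cells. All MEKi arrays were above all DMSO arrays at both times, and the DMSO arrays at 24 h were the lowest and closest together. The difference was 2.35 ± 0.15 (moderated SE) at 24 h, or 5.11-fold, and 1.40 ± 0.16 at 72 h, or 2.64-fold. With MEKi, Mgll was 0.46 lower at 72 h than at 24 h by group means (a difference of -0.46), and with DMSO it was 0.50 higher, so that the MEKi difference at 72 h minus that at 24 h was -0.95 ± 0.24.

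Both other bright Mgll probe sets gave similar values. On 1 of them the MEKi differences were 2.44 ± 0.12 at 24 h and 1.30 ± 0.16 at 72 h, and on the other they were 2.46 ± 0.14 and 1.52 ± 0.19. The fourth lay near the median of all probe sets, with group means of 5.92 in MEKi cells and 5.78 in DMSO cells at 24 h, and differed by 0.14 ± 0.06 at 24 h and 0.17 ± 0.10 at 72 h. Its groups overlapped at 72 h, so the large response of Mgll was read by 3 of its 4 probe sets.

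Lipe, the hormone-sensitive lipase, lay below the median of all probe sets at 24 h and just above it at 72 h. Its brighter probe set gave 5.16, 5.14 and 4.87 in MEKi cells at 24 h, against 4.87, 5.14 and 4.88 in DMSO cells, and the groups overlapped. At 72 h the signal was 5.87, 5.55 and 5.64 in MEKi cells, against 5.50, 5.39 and 5.40 in DMSO cells. Every MEKi array was then above every DMSO array, yet the difference of 0.26 ± 0.10 did not pass the test (adjusted p = 0.175, limma). Adjusted p-values here are from limma with Benjamini-Hochberg adjustment over all 45037 probe sets. Those among brighter probe sets only, or over the mean of own probe sets, were adjusted over the smaller set tested. The other Lipe probe set stayed between 3.78 and 3.91 in group mean.

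Pnpla2, the lipase that acts on intact triacylglycerol, was lower on all MEKi arrays than on DMSO arrays at 24 h and higher at 72 h. Its signal was 7.72, 7.88 and 7.80 in MEKi cells at 24 h, against 8.04, 8.04 and 7.94 in DMSO cells. At 72 h it was 8.02, 8.18 and 8.04 in MEKi cells, against 7.88, 7.95 and 7.79 in DMSO cells. The groups did not overlap at either time, but neither difference passed the test, at -0.21 ± 0.07 (adjusted p = 0.108) at 24 h and 0.21 ± 0.09 (adjusted p = 0.214) at 72 h. The change between the times was 0.41 ± 0.11 (adjusted p = 0.0547). It passed without DMSO replicate 2 at 72 h (adjusted p = 0.0407), and also among brighter probe sets only (0.0206), after repeated quantile normalization (0.0485) and with a trended prior (0.0367). It did not pass without any other array (up to 0.144) or over the mean of both Pnpla2 probe sets (0.225, adjusted p = 0.15). The dimmer Pnpla2 probe set, below the median, differed by -0.02 ± 0.10 at 24 h and 0.02 ± 0.08 at 72 h. Its change between the times was 0.04 ± 0.13 (adjusted p = 0.935).

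Pnpla2 has 2 direct regulators among the members. Abhd5 (CGI-58), its coactivator, gave 9.72, 9.81 and 9.65 in MEKi cells at 24 h, against 9.21, 9.32 and 9.17 in DMSO cells, and 9.40, 9.61 and 9.44 in MEKi cells at 72 h, against 8.95, 9.12 and 9.03 in DMSO cells. The groups were apart at both times. Abhd5 rose by 0.49 ± 0.07 at 24 h (1.41-fold, adjusted p = 0.00728) and by 0.45 ± 0.09 at 72 h (1.37-fold, adjusted p = 0.0166). The call at 72 h was lost without DMSO replicate 1 (adjusted p = 0.0756) or MEKi replicate 2 (0.0801), and over the mean of its own probe sets, where the difference was 0.22 (0.123). A second bright probe set of Abhd5 rose by 0.46 ± 0.07 at 24 h (adjusted p = 0.00954), while its 72 h difference of 0.20 ± 0.09 did not pass the test (adjusted p = 0.277), and the dimmest, near 3 on the log2 scale, differed by -0.04 and -0.00.

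G0s2, which binds Pnpla2 and inhibits it, was read by 1 probe set. Its signal was 5.95, 5.49 and 5.96 in MEKi cells at 24 h, against 6.32, 5.97 and 6.17 in DMSO cells. At 72 h it was 6.63, 6.25 and 7.18 in MEKi cells, against 8.26, 7.68 and 8.71 in DMSO cells. The MEKi arrays were lower at both times, narrowly at 24 h and widely at 72 h. The difference was -0.35 ± 0.14 at 24 h, and -0.20 without MEKi replicate 2. At 72 h it was -1.53 ± 0.27, or 2.89-fold lower in MEKi cells, and the change between the times was -1.18 ± 0.35. These SEs are from fits without pairing. With the replicate number as a block they were 0.07 at 24 h, 0.08 at 72 h and 0.11 for the change.

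The spread of G0s2 within groups ran with the replicate numbers. At 72 h replicate 2 was the lowest and replicate 3 the highest with MEKi and with DMSO alike, while the difference between MEKi and DMSO arrays of the same number was -1.63, -1.43 and -1.53. At 24 h these differences were -0.37, -0.48 and -0.21. Over time, G0s2 was 0.89 higher at 72 h than at 24 h with MEKi and 2.06 higher with DMSO. The MEKi arrays at 72 h, from 6.25 to 7.18, overlapped the DMSO arrays at 24 h, from 5.97 to 6.32.

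**Figure D2:**
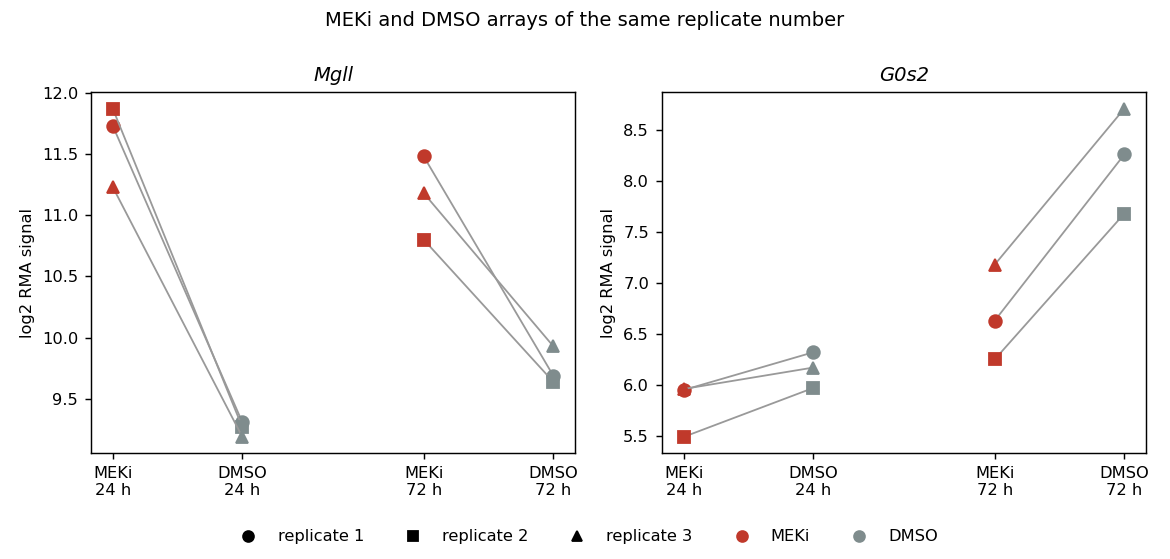
Log2 RMA signals of Mgll (left, brightest probe set) and G0s2 (right) are plotted per array, with grey lines joining MEKi and DMSO arrays of the same replicate number at each time. The G0s2 lines at 72 h are nearly parallel, with differences of -1.63, -1.43 and -1.53, while those of Mgll are 1.79, 1.16 and 1.25.

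The droplet coat proteins Plin2 and Plin3 each had 1 probe set. Plin2, which coats droplets in most cell types, gave 11.34, 11.38 and 11.31 in MEKi cells at 24 h, against 11.22, 11.10 and 11.21 in DMSO cells, and 11.67, 11.88 and 11.87 in MEKi cells at 72 h, against 11.29, 11.29 and 11.40 in DMSO cells. No MEKi array overlapped its DMSO group. The 24 h difference of 0.17 ± 0.06 did not pass the test (adjusted p = 0.155), and at 72 h Plin2 rose by 0.48 ± 0.09 (1.39-fold, adjusted p = 0.0119). That call was lost without DMSO replicate 1 (adjusted p = 0.0542) or MEKi replicate 2 (0.0609). The change between the times was 0.31 ± 0.11 (adjusted p = 0.147).

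Plin3 (TIP47), a coat protein that moves from the cytosol to new droplets, gave 10.28, 10.42 and 10.22 in MEKi cells at 24 h, against 10.04, 9.93 and 9.91 in DMSO cells. At 72 h it gave 10.82, 10.82 and 10.88 in MEKi cells, against 10.56, 10.64 and 10.30 in DMSO cells. The MEKi arrays were above the DMSO arrays at both times. Plin3 rose by 0.35 ± 0.07 at 24 h (1.27-fold, adjusted p = 0.0275), and the 72 h difference of nearly the same size, 0.34 ± 0.10, did not pass the test (adjusted p = 0.0755). It passed in 1 fit of all 12 arrays (0.0237), among brighter probe sets only (0.0435) and with a trended prior (0.0269). Leaving out any 1 array at 24 h other than MEKi replicate 3 ended the call, with adjusted p-values up to 0.0977.

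The enzymes Dgat1 and Dgat2 both carry out the last step of triacylglycerol synthesis. Dgat1 passed the test with MEKi and Dgat2 did not, and no test compared them. Dgat1 gave 9.63, 9.77 and 9.62 in MEKi cells at 24 h, against 9.13, 9.23 and 9.13 in DMSO cells, and 9.95, 9.88 and 9.87 in MEKi cells at 72 h, against 9.65, 9.55 and 9.58 in DMSO cells. Its groups were apart at both times. Dgat1 rose by 0.51 ± 0.07 at 24 h (1.42-fold, adjusted p = 0.00571) and by 0.31 ± 0.08 at 72 h (1.24-fold, adjusted p = 0.0459). The 72 h call stood just inside the threshold: it was lost with the replicate number as a block (adjusted p = 0.0538), without any 1 of the 6 arrays (up to 0.152), with arrays centred on their medians (0.0729) and over the mean of both Dgat1 probe sets (0.0901). The dimmer Dgat1 probe set, below the median, differed by 0.24 ± 0.07 at 24 h (adjusted p = 0.0767) and 0.15 ± 0.10 at 72 h (adjusted p = 0.5).

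Dgat2 gave 6.71, 6.85 and 6.93 in MEKi cells at 24 h, against 7.01, 7.02 and 7.12 in DMSO cells, and 6.89, 7.07 and 7.07 in MEKi cells at 72 h, against 7.21, 7.09 and 7.04 in DMSO cells. The groups were apart at 24 h and overlapped at 72 h. The differences of -0.22 ± 0.08 (adjusted p = 0.119) and -0.10 ± 0.09 (adjusted p = 0.597) did not pass the test. At 24 h the difference passed among brighter probe sets only (adjusted p = 0.0474) and as the mean of both Dgat2 probe sets (0.0362). The dimmer Dgat2 probe set differed by -0.17 ± 0.06 at 24 h (adjusted p = 0.118) and -0.29 ± 0.11 at 72 h (adjusted p = 0.178).

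Cpt1a, which controls the entry of long-chain fatty acids into mitochondria, had the largest MEKi difference at 72 h among the 8 genes tested. It gave 9.29, 9.12 and 9.18 in MEKi cells at 24 h, against 8.84, 8.66 and 8.68 in DMSO cells, and 9.57, 9.51 and 9.32 in MEKi cells at 72 h, against 8.63, 8.80 and 8.27 in DMSO cells. No array overlapped the other group at either time, and DMSO replicate 3 at 72 h was the lowest of all. Cpt1a rose by 0.47 ± 0.08 at 24 h (1.39-fold, adjusted p = 0.0106) and by 0.90 ± 0.13 at 72 h (1.87-fold, adjusted p = 0.00429). The 24 h call was lost without MEKi replicate 1 (adjusted p = 0.0511). The change between the times was 0.43 ± 0.17 (adjusted p = 0.211, and 0.0687 with the replicate block).

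Both other Cpt1a probe sets carry a suffix that marks probes which can match further transcripts. They rose at 72 h by 0.70 ± 0.14 (adjusted p = 0.0182) and 0.76 ± 0.14 (adjusted p = 0.0105). At 24 h they differed by 0.50 ± 0.14 (adjusted p = 0.0607, and 0.0274 with the replicate block) and 0.20 ± 0.11 (adjusted p = 0.347). The change between the times was 0.20 ± 0.22 on the brighter of them (adjusted p = 0.738, and 0.524 with the block). On the dimmer, below the median, it was 0.56 ± 0.19 (adjusted p = 0.154, and 0.0213 with the block).

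**Figure D3:**
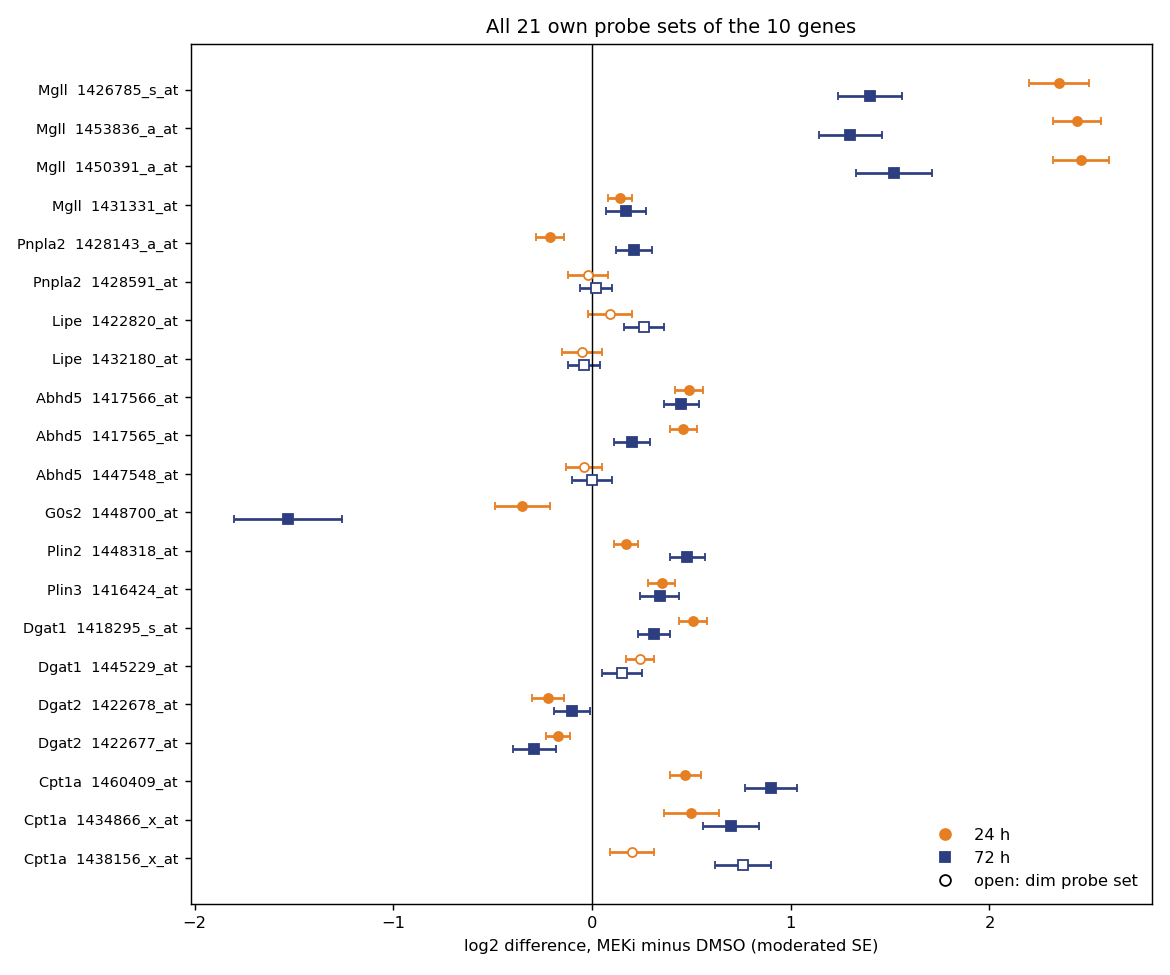
Each row is 1 of the 21 own probe sets of the 10 genes, with its log2 difference, MEKi minus DMSO, at 24 h (orange circles) and 72 h (blue squares), bars showing the moderated SE and open markers showing probe sets whose mean was below the median of 5.363. The bright Mgll probe sets lie between 1.30 and 2.46, G0s2 lies at -0.35 and -1.53, and the remaining ones lie between -0.29 and 0.90.

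Of the 8 genes other than Mgll and G0s2, which were also chosen with earlier results of these data known, 4 were higher and 0 lower with MEKi at 24 h, where 5.01% of all 18194 genes were called higher and 5.86% lower. At 72 h 4 were higher and 0 lower, against 4.03% and 5.14% of all genes. The median difference of the 8 was 0.26 at 24 h and 0.32 at 72 h, against 0.01 at each time over all genes. Groups did not overlap for 7 of the 8 at either time, as for 34.5% of all genes at 24 h and 29.1% at 72 h. By limma, 7 of the 8 had an unadjusted p below 0.05 in either direction at each time, as had 27.7% of all genes at 24 h and 23.3% at 72 h. Lower calls were made at 24 h among brighter probe sets only (Pnpla2 and Dgat2) and with the mean over own probe sets (Dgat2). Without MEKi replicate 1 the count at 24 h fell to 2, and at 72 h it fell to 1 without DMSO replicate 1 or without MEKi replicate 2.

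No member of the 8 passed the limma test for a change in the MEKi difference between 24 h and 72 h, against 4.07% of all genes, although 3 had an unadjusted p below 0.05, as had 18.7% of all genes. The median of the 8 changes was 0.14, against 0.00 over all genes. With brighter probe sets only, or after repeated quantile normalization, or without DMSO replicate 2 at 72 h, 1 passed, and 2 passed with a trended prior.

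Culture time without inhibitor was a further comparison. It shares the DMSO arrays with the MEKi comparisons, so the DMSO values of Mgll and G0s2 are not independent of how these genes were chosen. Harvest time and any difference in labelling between the harvests cannot be told apart: the Dap control RNA had a 3′ minus 5′ difference of 1.34 to 1.47 on the 72 h arrays and 1.96 to 2.16 on the 24 h arrays. In DMSO cells at 72 h relative to 24 h, 5 of the 10 genes were higher and 0 lower, where 14.2% of all genes were called higher and 16.9% lower. Leaving out Mgll and G0s2, 3 of 8 were higher, and groups did not overlap for 5 of the 8, as for 48.5% of all genes. Of the immune markers 3 of 4 were higher in the same comparison, Csf1r by 0.32, Lyz2 by 0.31 and Ptprc by 0.25 (adjusted p = 0.0218, 0.029 and 0.0468), and their part in the members' values was not tested.

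Those 3 were Plin3, Dgat1 and Lipe. Plin3 averaged 10.50 ± 0.18 at 72 h and 9.96 ± 0.07 at 24 h (SD, n = 3 each), a rise of 0.54 ± 0.10 (1.45-fold, adjusted p = 0.00434, limma). Dgat1 averaged 9.59 ± 0.05 at 72 h and 9.16 ± 0.06 at 24 h, a rise of 0.43 ± 0.07 (adjusted p = 0.00277), and Lipe averaged 5.43 ± 0.06 and 4.96 ± 0.15, a rise of 0.47 ± 0.09 (adjusted p = 0.00597). The groups did not overlap for any of them. The DMSO arrays at 24 h are the lower side both here and in the MEKi comparison at 24 h, so the rises of Plin3 and Dgat1 in the 2 are not independent. Among the 4 groups, MEKi cells at 72 h had the highest means of Plin3 (10.84) and Dgat1 (9.90). Abhd5 was 9.03 ± 0.09 at 72 h and 9.23 ± 0.08 at 24 h in DMSO cells, a difference of -0.20 ± 0.08 that did not pass the test (adjusted p = 0.0995), but passed as lower among brighter probe sets only (0.0481) and with arrays centred on their medians (0.0348).

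Promoter windows from RefSeq (build GRCm38.p6) were at hand for 8 of the 10 genes, in 10 windows of 300 bases. Dgat1 and Dgat2 are named only. The letters CACGTG, the same on both strands and the core of the E-box that basic helix-loop-helix factors such as MITF and TFE3 bind, were in windows of 3 of the 8 genes, Mgll, Plin2 and Lipe, and in windows of 8.09% of 27025 genes. The windows of these 3 genes and of G0s2, which had no match, are shown because these genes include the largest MEKi differences in each direction and every E-box match. Each line runs from 200 bases before the start site to 25 bases from it on, 5′ to 3′ on the gene's strand, with CACGTG in capitals.
Mgll (chr6:88724212-88724436, plus strand): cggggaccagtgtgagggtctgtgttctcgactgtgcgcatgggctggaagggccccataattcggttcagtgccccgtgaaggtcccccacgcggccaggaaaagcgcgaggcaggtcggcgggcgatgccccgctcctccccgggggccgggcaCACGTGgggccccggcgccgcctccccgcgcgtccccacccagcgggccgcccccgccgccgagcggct
Plin2 (chr4:86670035-86670259, minus strand): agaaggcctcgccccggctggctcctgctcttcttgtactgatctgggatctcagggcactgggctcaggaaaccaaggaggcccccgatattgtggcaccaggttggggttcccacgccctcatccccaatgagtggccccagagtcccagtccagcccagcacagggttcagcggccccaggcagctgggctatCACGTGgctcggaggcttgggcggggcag
Lipe (chr7:25395963-25396187, minus strand): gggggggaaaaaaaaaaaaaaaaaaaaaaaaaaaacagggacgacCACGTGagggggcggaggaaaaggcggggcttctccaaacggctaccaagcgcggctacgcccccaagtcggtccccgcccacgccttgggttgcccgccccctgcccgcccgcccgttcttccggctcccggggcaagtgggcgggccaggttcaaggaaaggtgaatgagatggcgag
G0s2 (chr1:193273164-193273388, minus strand): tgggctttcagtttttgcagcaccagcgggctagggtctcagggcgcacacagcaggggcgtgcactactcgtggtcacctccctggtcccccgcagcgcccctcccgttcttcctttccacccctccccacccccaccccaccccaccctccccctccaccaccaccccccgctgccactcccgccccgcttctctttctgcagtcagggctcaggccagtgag
Counted from the start site, the match began at position -44 in Mgll, at position -4 in Plin2 and at position -155 in Lipe. The second windows of Mgll and Lipe had no match. Of the other motifs searched on both strands, none of which overlapped the E-box in these windows, the nuclear receptor half-site AGGTCA was in the windows of Plin2, Abhd5 and Cpt1a and in those of 18.1% of genes. The forkhead motif GTAAACA was in windows of Mgll and Lipe and of 4.05% of genes, and the ETS core CGGAAG was in both windows of Lipe and in those of 18.8% of genes. The cAMP response element TGACGTCA was in none of the 10 windows and in those of 2.03% of genes. The motifs were chosen after the values were known, and a match describes letters only.

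Further genes of lipid storage and use were counted in 6 lists of 112 measured genes. With MEKi 14 were higher and 3 lower at 24 h, or 15.2% of the 112 against 10.9% of all genes, and 13 were higher and 5 lower at 72 h, or 16.1% against 9.17%. In DMSO cells at 72 h relative to 24 h, 25 were higher and 18 lower, or 38.4% against 31.1%. By limma, 27.7% of all genes had an unadjusted p below 0.05 at 24 h, in either direction, and 23.3% had one at 72 h. At 24 h the list of droplet coat and formation held 4 of 21 such genes, other hydrolases 11 of 18 and synthesis 8 of 15. Uptake held 8 of 18, oxidation 9 of 24 and regulators 3 of 16. At 72 h the counts were 7, 8, 7, 4, 11 and 3, in the same order of lists. Leaving out 1 array gave 5 to 23 calls at 24 h and 7 to 14 at 72 h. The fewest at 24 h came without MEKi replicate 1, followed by 6 without MEKi replicate 2, 7 without DMSO replicate 2, 8 without DMSO replicate 3 and 11 without DMSO replicate 1. At 72 h there were 7 without MEKi replicate 2 and 9 without MEKi replicate 1, DMSO replicate 1 or DMSO replicate 2.

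Among 21 genes of the droplet coat and of droplet formation, 3 were higher and 0 lower at 24 h, against 5.01% and 5.86% of all genes. At 72 h 3 were higher and 2 lower, against 4.03% and 5.14%. Hsd17b11, an enzyme found on droplets, averaged 11.53 ± 0.12 in MEKi cells and 10.94 ± 0.08 in DMSO cells at 24 h, and 11.96 ± 0.05 and 11.41 ± 0.06 at 72 h (differences of 0.60 and 0.55, adjusted p = 0.00571 and 0.00411). Bscl2 (seipin), which organises the sites where droplets form, rose by 0.34 ± 0.07 at 24 h (adjusted p = 0.0225, lost without any 1 of 4 arrays, DMSO replicates 2 and 3 and MEKi replicates 1 and 2, up to 0.0903) and by 0.66 ± 0.10 at 72 h (adjusted p = 0.00421). The list's median difference was 0.07 at each time.

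Among 18 other hydrolases of glycerides and endocannabinoids, 6 were higher and 1 lower at 24 h, against 5.01% and 5.86% of all genes. At 72 h 5 were higher and 0 lower, against 4.03% and 5.14%. The list's median differences were 0.07 and 0.20. Abhd6, which like Mgll cleaves monoacylglycerol, was 8.68, 8.72 and 8.49 in MEKi cells at 24 h, against 8.15, 8.20 and 7.88 in DMSO cells. It rose by 0.55 ± 0.10 at 24 h (adjusted p = 0.0157, lost without MEKi replicate 1 at 0.0702 or without MEKi replicate 2) and by 0.49 ± 0.08 at 72 h (adjusted p = 0.00707). Dagla, the diacylglycerol lipase that makes 2-arachidonoylglycerol, the endocannabinoid that Mgll degrades, was 7.31, 7.10 and 7.40 in MEKi cells at 24 h, against 8.46, 8.19 and 8.20 in DMSO cells. All MEKi arrays were below all DMSO arrays, a fall of 1.01 ± 0.10 on the log2 scale (a difference of -1.01, adjusted p = 0.00242). At 72 h the Dagla difference was -0.39 ± 0.13 (adjusted p = 0.121, and 0.039 with the replicate block). Abhd4, a lipase of N-acylethanolamine synthesis, rose by 0.63 ± 0.08 at 72 h (adjusted p = 0.00209).

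Of 15 genes of glyceride and sterol ester synthesis, 0 were higher and 2 lower at 24 h by limma, against 5.01% and 5.86% of all genes. At that time 8 had an unadjusted p below 0.05, against 27.7% of all genes. At 72 h 1 was higher and 1 lower, against 4.03% and 5.14%. Gpd1, which makes glycerol 3-phosphate, fell by 0.47 ± 0.06 at 24 h (a difference of -0.47, adjusted p = 0.00531). Lpin1, the phosphatidate phosphatase, differed by -0.29 ± 0.07 at 24 h (adjusted p = 0.0376) and -0.36 ± 0.09 at 72 h (adjusted p = 0.0446), and both calls were lost with the replicate block (0.0634 and 0.0581), without any 1 array other than MEKi replicate 3 at 24 h (up to 0.129) and without any 1 array other than DMSO replicate 3 at 72 h (up to 0.168). Agpat3, an acyltransferase that makes phosphatidate, was 0.33 ± 0.08 higher at 72 h (adjusted p = 0.0337, lost without any 1 of the 6 arrays, up to 0.14).

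Of 18 genes of fatty acid uptake, binding and activation, 2 were higher and 0 lower at 24 h, against 5.01% and 5.86% of all genes. At 72 h 1 was higher and 1 lower, against 4.03% and 5.14%. Slc27a4, a fatty acid transport protein, rose by 0.43 ± 0.07 at 24 h (adjusted p = 0.0113, and 0.0557 without MEKi replicate 1) and by 0.35 ± 0.08 at 72 h (adjusted p = 0.0373, and 0.0542 with the replicate block). Acot2, a mitochondrial acyl-CoA thioesterase, was 0.27 ± 0.06 higher at 24 h (adjusted p = 0.0363, and 0.0531 with the block), a call lost without any 1 array other than MEKi replicate 3 (up to 0.13). The Slc27a4 call at 72 h was lost without any 1 of the 6 arrays (up to 0.14). Fabp5, a fatty acid binding protein, averaged 12.93 ± 0.08 in MEKi cells and 13.49 ± 0.02 in DMSO cells at 72 h, a difference of -0.56 ± 0.08 (adjusted p = 0.00373).

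Of 24 further genes of mitochondrial and peroxisomal fatty acid oxidation and its control, 2 were higher at 24 h and 3 at 72 h by limma. Of all genes, 5.01% and 4.03% were called higher at these times. At either time 0 of the 24 were lower, against 5.86% of all genes at 24 h and 5.14% at 72 h. The medians were 0.12 and 0.11. Acadvl, the very long-chain acyl-CoA dehydrogenase, was 10.99, 11.09 and 10.98 in MEKi cells at 72 h, against 10.11, 10.10 and 9.99 in DMSO cells. It rose by 0.95 ± 0.08 (1.94-fold, adjusted p = 0.000577), with no overlap between the groups. Eci2, an enoyl-CoA isomerase, rose by 0.37 ± 0.08 at 24 h (adjusted p = 0.0299, up to 0.114 with 1 array left out) and by 0.53 ± 0.09 at 72 h (adjusted p = 0.00754), and Slc25a20, the carnitine carrier next to Cpt1a in the pathway, was 0.25 ± 0.06 higher at 24 h (adjusted p = 0.0401, and 0.0637 with the block). Both calls at 24 h were lost without any 1 array other than MEKi replicate 3.

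Of 16 PPAR and lipolysis regulators, 1 was higher and 0 lower at 24 h, against 5.01% and 5.86% of all genes. At 72 h 0 were higher and 1 lower, against 4.03% and 5.14%. By limma 3 had an unadjusted p below 0.05 at each time, against 27.7% of all genes at 24 h and 23.3% at 72 h. Ppargc1a, a coactivator of genes of mitochondrial oxidation, was 10.97, 10.63 and 10.37 in MEKi cells at 24 h, against 10.12, 9.69 and 9.76 in DMSO cells. It rose by 0.80 ± 0.16 (1.74-fold, adjusted p = 0.0218), a call lost without any 1 of DMSO replicates 2 and 3 and MEKi replicates 1 and 2 (up to 0.0782). At 72 h its difference was -0.26 ± 0.15 (adjusted p = 0.401). Prkacb, a catalytic subunit of protein kinase A, was lower at 72 h by 0.38 (a difference of -0.38 ± 0.09, adjusted p = 0.0373, lost without any 1 array other than MEKi replicate 3, up to 0.148).

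**Figure D4:**
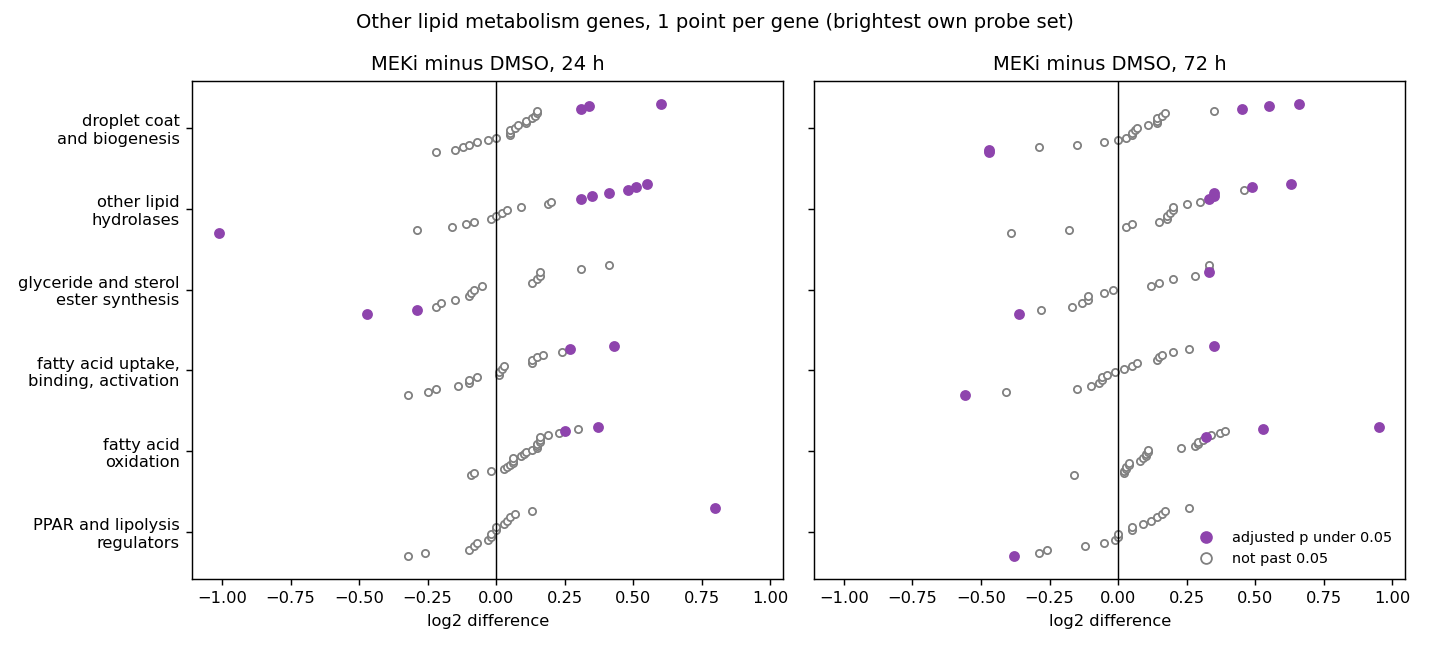
Each point is 1 of the 112 further lipid metabolism genes, placed by its log2 difference, MEKi minus DMSO, at 24 h (left) and 72 h (right) on the same scale, in rows by list, with filled points for adjusted p under 0.05. Dagla is the lowest point at 24 h (-1.01), Ppargc1a the highest at 24 h (0.80) and Acadvl the highest at 72 h (0.95).

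The genes most like Mgll and G0s2 over the 12 arrays were sought by Pearson's r among 949 genes whose group means spanned at least 1 log2 unit, as a description. Trnp1 (r = 0.981), S100a1 (0.978), Rarb (0.951) and Trp53inp2 (0.949) came nearest to Mgll, and S100a1 averaged 12.11 in MEKi cells and 10.93 in DMSO cells at 24 h, and 11.95 and 11.23 at 72 h. Itgb5 (0.984), Fxyd1 (0.978), Dlx6 (0.972) and B330016D10Rik (0.971) came nearest to G0s2, and Dlx6 averaged 6.02 in MEKi cells and 6.26 in DMSO cells at 24 h, and 7.01 and 8.00 at 72 h. The 12 arrays fall into the same 4 groups for every gene, so r holds differences between group means as well as between single arrays.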

How the data were processed

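Per the labels, 200 ng of total RNA per sample was labelled with the 3′ IVT Plus kit and the authors normalized the 12 arrays by RMA (background correction, quantile normalization between arrays, 1 summary value per probe set). The deposited values are log2 signals rounded to 2 decimals, from 2.21 to 14.47, and were used as deposited. The version of RMA is not given in the sources used here. Of 45101 probe sets, 64 controls were left out of the tests. Among the rest, 34945 belonged to 1 gene by the annotation, 932 were shared by several and 9160 had no gene name, and a gene's value is its brightest own probe set over all arrays.

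Each comparison was a two-sided limma fit (version 3.58.1, R 4.3.3) of both groups' arrays (all 12 for the change between times), with Benjamini-Hochberg adjustment over 45037 probe sets and a threshold of 0.05. Precision is limited by the number of arrays. The fit was tested on simulated data. Named genes were the 10 members, the largest 2 called genes above the median signal per list and MEKi comparison, the 4 genes most like Mgll and G0s2, and Dusp6. The members and lists were chosen with earlier results of these data known. Within a time, MEKi and DMSO arrays of the same number deviated together (r = 0.207 to 0.307 over the brighter probe sets, 0.073 to 0.189 over all). Different numbers gave -0.288 to 0.002 and -0.156 to 0.032, and the number was taken as pairing them, from the data. The main fits held no block, so their SEs and p-values are unpaired. Pairing entered the fits only through the replicate block, as an alternative. Deviations from a group mean offset each other, so these ranges are not independent. Arrays that shared neither time, treatment nor number reached 0.272 over the brighter probe sets and 0.172 over all, so the pairing is not certain. Alternatives were the replicate number as a block, 1 fit of all arrays, brighter probe sets only, median centring, repeated quantile normalization, a trended robust prior, the mean over own probe sets and leaving out each array. With brighter probe sets only and with the mean over own probe sets, the adjustment ran over fewer rows than 45037.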

Additional observations from a re-analysis of the deposited data

Results flagged for a closer look

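For 3 of the 112 genes of the lipid metabolism lists (2.68%, against 4.07% of all genes) the MEKi difference changed between 24 h and 72 h by limma's test of the change itself, which is what set them apart. For Acadvl the change was 0.72 ± 0.10 (adjusted p = 0.00293), with a difference of 0.23 at 24 h and 0.95 at 72 h. For Fabp5 it was -0.46 ± 0.09 (adjusted p = 0.0164), with -0.10 at 24 h and -0.56 at 72 h. For Ppargc1a it was -1.06 ± 0.25 (adjusted p = 0.0339), with 0.80 at 24 h and -0.26 at 72 h, and the call was lost in 8 of the 12 fits that left out 1 array (up to 0.0981).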

How the results depend on the processing

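The members' counts with MEKi stayed at 4 to 6 at 24 h and 3 to 5 at 72 h under every alternative other than leaving out an array, except for 2 at 72 h over the mean of own probe sets. Among brighter probe sets only, Lipe was not tested, and the 6 at 24 h include Pnpla2 and Dgat2 as lower. Leaving out 1 array gave 2 to 4 at 24 h and 1 to 3 at 72 h. In DMSO cells 5 or 6 of 10 passed throughout, but with dim probe sets left out Abhd5 passed as lower and Lipe was not tested, and with median centring Abhd5 passed as lower too. These counts include Mgll and G0s2, whose DMSO values are not independent of how they were chosen. Without these genes, 3 of 8 passed in the main fit. For the change between times, brighter probe sets only gave 1 member, repeated quantile normalization 1 and the trended prior 2, and leaving out 1 array gave 0 to 1. For the 6 lists, brighter probe sets only gave 32 genes at 24 h, 30 at 72 h and 12 for the change, the trended prior gave 34, 30 and 8, the mean of own probe sets gave 26 at 24 h and 7 for the change, and 1 fit of all 12 arrays gave 33 at 72 h, against 17, 18 and 3. Leaving out 1 array gave 5 to 23 at 24 h, 7 to 14 at 72 h and 2 to 4 for the change. The cause was not tested. With the replicate block the members' counts were 4 at 24 h, 3 at 72 h, 0 for the change and 5 in DMSO cells, and beyond Dgat1 at 72 h it changed no other member's call. In DMSO cells the block joined equal numbers across the times, where r was 0.06, 0.017 and 0.01 over the brighter probe sets. The values thus show little pairing there. The Plin3 change between times, -0.01, ranged between -0.107 and 0.063 with 1 array left out, and was positive in 7 of 12 such fits, and the Pnpla2 difference in DMSO cells, -0.13, was 0.022 over the mean of own probe sets. Dim probe sets, as of Lipe, limit what can be read.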
